A study of Mus musculus with 32 samples.

Results

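The genes described here are 10 components of TGF-β signaling, taken by symbol from the 22850 genes of the deposited expression table. They are the ligands *Tgfb1*, *Tgfb2* and *Tgfb3*, the receptors *Tgfbr1*, *Tgfbr2* and *Acvrl1* with the co-receptor *Eng*, the inhibitory Smads *Smad6* and *Smad7*, and the target gene *Id1*. All 10 were found and all 10 passed the filter on low values in every comparison. TGF-β ligands are secreted in a latent form and, once released, bind the type II receptor TGFBR2, which recruits and phosphorylates a type I receptor. TGFBR1 passes the signal to Smad2 and Smad3, whereas ACVRL1, the type I receptor of the endothelium, works with the co-receptor endoglin (*Eng*) and signals through Smad1, Smad5 and Smad9 to genes such as *Id1*. SMAD6 and SMAD7 are induced by these signals and block them, so their transcripts are often read as a record of pathway activity, and loss of *Eng* or *Acvrl1* is known for vascular malformation.

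The cells came from islets of adult mice on a C57BL/6 background that carried MIP-GFP, RIP-rtTA and TetO-VEGF-A. An insulin promoter drives rtTA in β cells, so that doxycycline (Dox) induces human VEGF-A there, and an *Ins1* promoter drives the GFP by which β cells were sorted. All groups carry all 3 transgenes, the No Dox group included. Mice were untreated (No Dox), given Dox for 1 week (1wk Dox), or studied after 1 week of withdrawal from Dox (1wk WD). GFP+ cells were taken as β cells, CD31+ cells as endothelial cells (ECs) and CD11b+ cells as macrophages (MΦs). By the study's methods the β cell gate left out cells positive for CD31 or CD11b. Of the 32 samples, 12 were β cells (4 No Dox, 5 1wk Dox, 3 1wk WD), 10 were ECs (4, 1 and 5 in that order) and 10 were MΦs (4, 2 and 4), each from the pooled islets of several mice. The labels place further replicates of the 1wk Dox ECs and MΦs in another series, and the 6 further columns of the table under the group headings of these cells were not analysed here. The 1wk Dox ECs are therefore represented by 1 sample, with no replicate check and no test. The labels do not say whether replicates were sorted on separate days, so p-values measure the spread between these samples. The numbers heading the sample columns fall into 2 runs. The higher run holds 1wk WD β cell sample 3 and every 1wk Dox EC and MΦ sample used here. All other samples used are in the lower run. What the runs stand for is not stated. For ECs and MΦs they cannot be told apart from 1wk Dox.

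Every value is a score, an expression value that the authors normalized between samples and deposited as a whole number of 1 or more. Scores are not divided by gene length and hold no read counts. The depth behind them is therefore unknown, and levels of different genes are compared only as score per kb of exon. Differences are log2 fold changes of score + 1, tested with limma across all genes and adjusted by the Benjamini-Hochberg method. A gene is called where its fold change is at least 2 and its adjusted p is under 0.05.

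The sorted cells carried the defining markers of their labels, but the β cell samples also held transcripts of other cells. The 7 β cell markers summed to between 496625 and 10852666 in β cells, the 8 endothelial markers to between 393853 and 636672 in ECs, and the 7 macrophage markers to between 224329 and 407416 in MΦs. The 10 genes of stroma and pericytes summed to 1031 and 1125 in No Dox β cell samples 1 and 2, to 153817 and 540417 in samples 3 and 4, and to between 25966 and 505631 in the 8 later samples. The 5 acinar enzymes summed to 610930, 26432, 10426221 and 7973760 in the No Dox β cell samples, above the β cell markers of samples 3 and 4 (1636091 and 621603), and to between 188 and 479306 in the later β cell samples. They summed to between 54133 and 1459742 in the No Dox EC samples and reached 9849305 in No Dox MΦ sample 2 and 1660975 in sample 4. In such bulk samples, fewer cells of a type and less RNA per cell cannot be told apart.

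**Figure D1:**
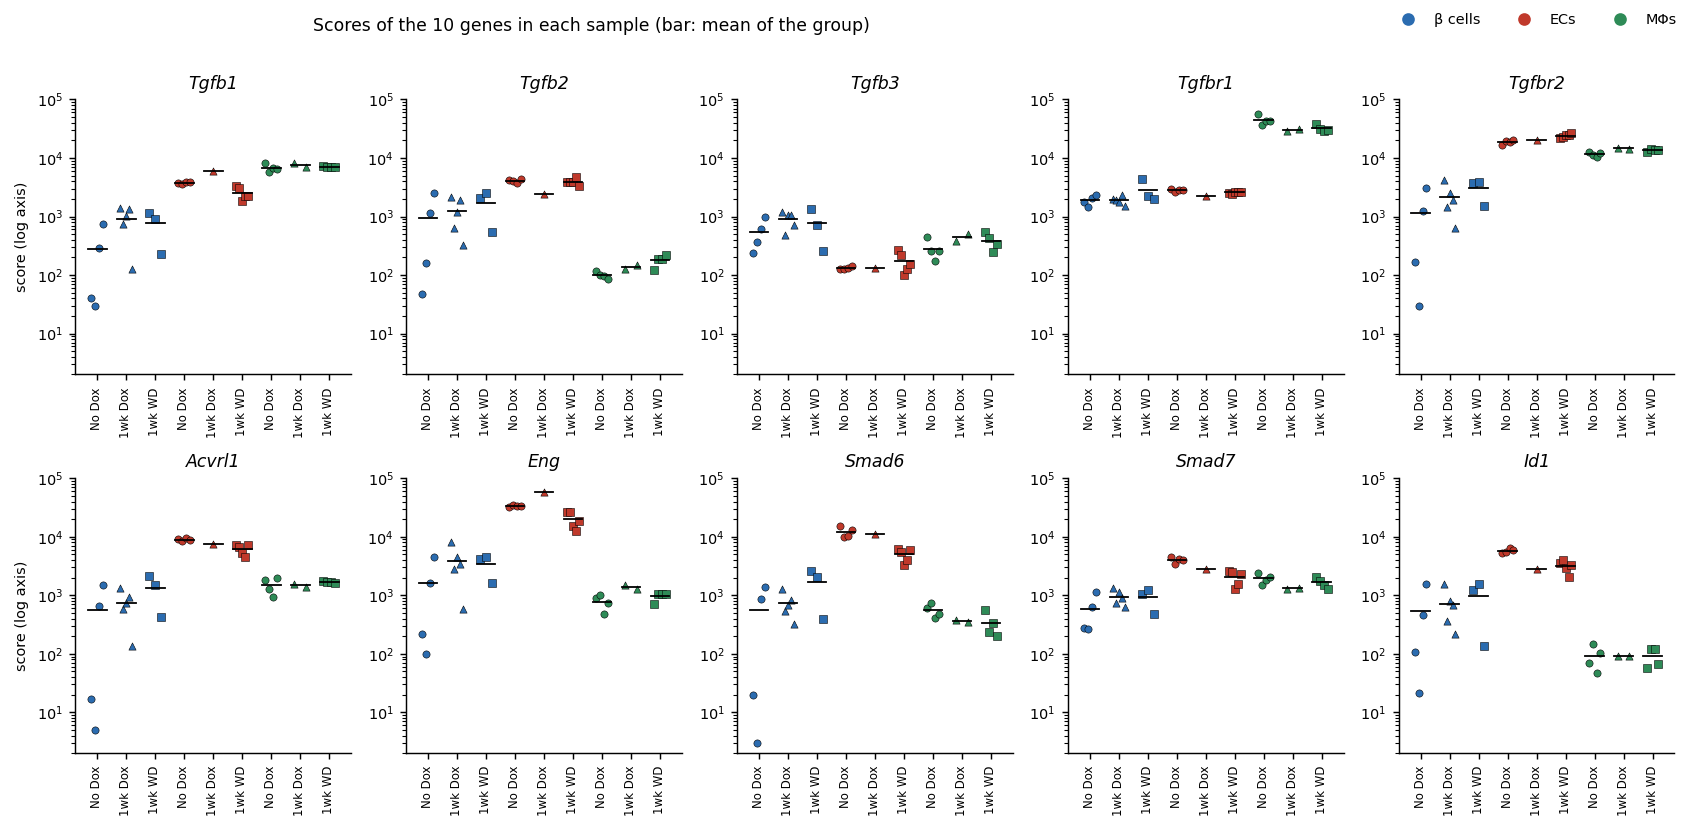
Each panel plots the score of 1 gene on a log axis in the 9 groups of β cells (blue), ECs (red) and MΦs (green), with 1 point per sample and a bar at the group mean. *Smad6*, *Smad7*, *Id1* and *Eng* are lower in every 1wk WD EC sample than in every No Dox EC sample, and the β cell points of *Smad6* and *Eng* cover their widest fold range at No Dox.

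The ligands differed between the cell types of untreated islets. *Tgfb1*, the most widely studied ligand of the family, scored 8121, 5671, 6637 and 6425 in No Dox MΦs, 3799, 3579, 3847 and 3864 in ECs, and 41, 29, 288 and 735 in β cells. These 3 ranges did not overlap. *Tgfb1* was higher than in β cells by 5.70 ± 0.81 in MΦs and by 4.88 ± 0.81 in ECs (log2 fold change ± SE, limma adjusted p = 0.000102 and 0.000385). Over 22 alternatives of samples or settings these differences ran from 3.85 to 7.55 in MΦs and from 3.03 to 6.73 in ECs. The difference between ECs and MΦs, -0.82 ± 0.81, did not pass with β cells in the fit (adjusted p = 0.453), and passed the p threshold but not the fold threshold when only ECs and MΦs were fitted (adjusted p = 0.000226).

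*Tgfb2* was high in ECs and low in MΦs. It scored 4152, 3970, 3776 and 4357 in No Dox ECs against 118, 102, 96 and 87 in MΦs, a log2 difference of 5.33 ± 0.95 (adjusted p = 0.000637). In No Dox β cells it ran from 47 in sample 1 to 2477 in sample 4. *Tgfb3* scored 127, 128, 130 and 144 in No Dox ECs and 234, 364, 609 and 983 in β cells, and was the only member called lower in ECs than in β cells (-1.84 ± 0.43, adjusted p = 0.00383). Per kb of exon the No Dox ECs therefore had *Tgfb1* at 1475, *Tgfb2* at 839.3 and *Tgfb3* at 39.08, whereas the MΦs had *Tgfb1* at 2625, *Tgfb3* at 83.26 and *Tgfb2* at 20.81.

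Among the receptors, *Tgfbr1* was highest in MΦs and the others in ECs. *Tgfbr1*, the type I receptor for TGF-β, scored 57484, 37296, 43398 and 42420 in No Dox MΦs, 2948, 2591, 2786 and 2811 in ECs, and 1796, 1460, 2048 and 2286 in β cells. The MΦ level was 23.8-fold that of β cells (4.57 ± 0.16, adjusted p = 1.21e-08), and the log2 difference of ECs from MΦs was -4.00 ± 0.16 (adjusted p = 6.72e-09). *Tgfbr2*, the type II receptor, was high in both, with 16685, 19841, 18696 and 20360 in ECs and 12799, 11404, 10485 and 12059 in MΦs. The ranges of *Tgfbr2* in ECs and MΦs did not touch, but the difference of 0.69 ± 1.08 did not pass (adjusted p = 0.651). With only ECs and MΦs fitted, *Tgfbr2* again differed by 0.69, with an adjusted p of 0.000378 and a fold change under 2.

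*Acvrl1* and *Eng*, which act together on the endothelial arm, were highest in ECs. *Eng* scored 31784, 35151, 33482 and 33913 in No Dox ECs and 897, 994, 477 and 738 in MΦs, a 44.8-fold difference (5.48 ± 0.93, adjusted p = 0.000461). *Acvrl1* scored 9002, 8416, 9404 and 8811 in No Dox ECs against 1832, 1308, 947 and 1969 in MΦs. The difference in *Acvrl1*, 2.61 ± 1.41, did not pass in the fit of 3 cell types (adjusted p = 0.163) and was called with only the pair of cell types fitted (adjusted p = 3.29e-06). *Eng* shares 124 exon bases with *Ak1* on its own strand and 61 with *Fpgs* on the other, and *Acvrl1* shares 127 with the antisense transcript *Gm16031*, so a small share of their reads could belong to these neighbours.

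*Smad6* and *Id1* were also higher in ECs than in MΦs. *Smad6* scored 15257, 10098, 10503 and 12981 in No Dox ECs and 614, 742, 408 and 477 in MΦs, a difference of 4.46 ± 1.49 (adjusted p = 0.03). This call held in 14 of 22 alternatives. It ended on leaving out any 1 No Dox EC sample, MΦ sample 1, 3 or 4, or MΦ samples 2 and 4 together, with adjusted p up to 0.107. *Id1*, an inhibitor of bHLH transcription factors, scored 5208, 5463, 6554 and 5897 in ECs and 71, 146, 47 and 105 in MΦs, the largest difference among the 10 members between these cell types at 6.07 ± 1.00 (adjusted p = 0.000358). *Smad7* was less restricted, with 4531, 3390, 4176 and 3966 in ECs and 2439, 1498, 1805 and 2065 in MΦs (1.06 ± 0.40, adjusted p = 0.0506). It was called in 8 of 22 alternatives, the fit of ECs and MΦs alone among them.

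Against β cells, 9 of the 10 members were called in No Dox ECs, 8 higher and *Tgfb3* lower, where 37.7% of all genes tested were called (16.5% higher and 21.2% lower). In MΦs against β cells 5 members were called (*Tgfb1*, *Tgfbr1*, *Tgfbr2*, *Acvrl1* and *Smad7*, all higher) against 43.2% of all genes (19.7% higher). The call of *Acvrl1* in MΦs against β cells held in 13 of 22 alternatives. It ended on leaving out β cell sample 1 or 2, any 1 MΦ sample, or MΦ samples 2 and 4, with only the pair of cell types fitted, and without β cell samples 1 and 2, where *Acvrl1* went from 3.83 to 0.53 (adjusted p = 0.205). In ECs against MΦs 5 members were called (*Tgfb2*, *Eng*, *Smad6* and *Id1* higher, *Tgfbr1* lower) against 33.5% (15.9% higher and 17.6% lower). Without β cells in the fit, 8 members were called between ECs and MΦs, against 39.6% of all genes, the others being *Tgfb1* and *Tgfbr2*. The 9 calls in ECs against β cells held in all 22 alternatives, whereas in MΦs against β cells the calls changed with the No Dox β cell samples used. With β cell samples 1 and 2 left out, *Eng* and *Smad6* turned from 0.24 and 2.44 in MΦs against β cells to -1.85 and -1.01 (adjusted p = 0.00155 and 0.0105).

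At 1wk WD the same 9 members were called in ECs against β cells, of a background of 39.9%, 7 in MΦs against β cells (46.2%), and 8 in ECs against MΦs (40.3%). In MΦs against β cells 3 were higher (*Tgfb1*, *Tgfbr1* and *Tgfbr2*) and 4 lower (*Tgfb2*, *Eng*, *Smad6* and *Id1*). In ECs against MΦs 5 were higher (*Tgfb2*, *Acvrl1*, *Eng*, *Smad6* and *Id1*) and 3 lower (*Tgfb1*, *Tgfb3* and *Tgfbr1*). The call of *Tgfb3* in ECs against MΦs held in 10 of 19 alternatives (limma adjusted p up to 0.12), and the other 7 calls in all 19. The difference of *Smad7* between ECs and MΦs did not pass at this time, at 0.26 with a 95% interval from -0.37 to 0.90 (adjusted p = 0.478). *Id1* and *Eng* were higher in ECs than in MΦs after withdrawal by 5.13 ± 0.58 and 4.34 ± 0.31 (adjusted p = 4.81e-06 and 4.62e-08).

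**Figure D2:**
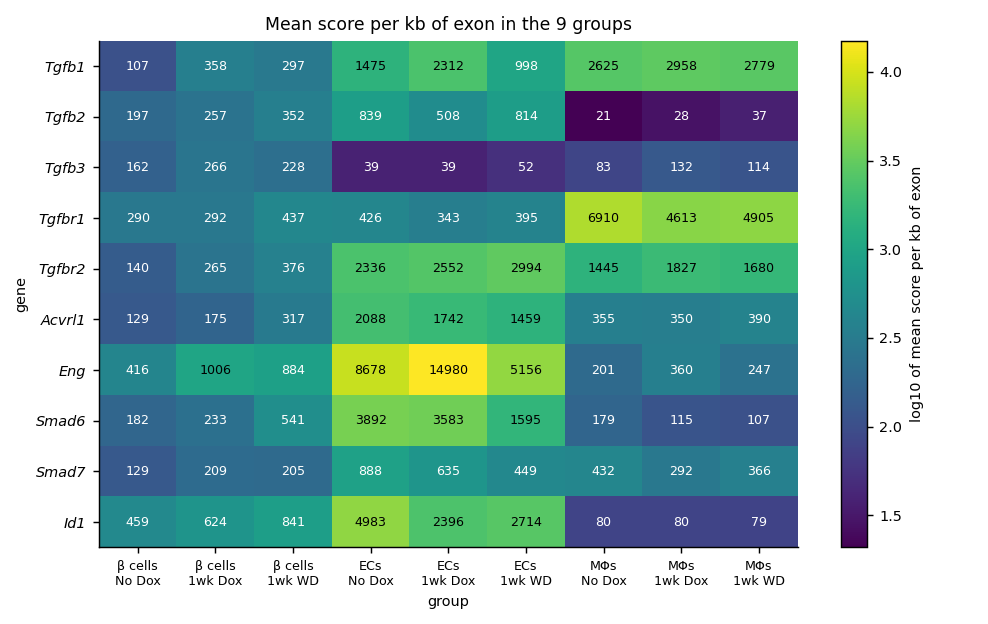
The grid gives the mean score per kb of exon of each gene (rows) in each of the 9 groups (columns), colored on a log10 scale. *Eng* in ECs and *Tgfbr1* in MΦs stand out, at 8678 and 6910 in the No Dox groups.

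After withdrawal of Dox, the inhibitory Smads *Smad6* and *Smad7* fell in ECs. *Smad6* scored 15257, 10098, 10503 and 12981 at No Dox and 6177, 5504, 3358, 3972 and 6007 at 1wk WD. Every 1wk WD sample lay below every No Dox sample. The log2 fold change of *Smad6* was -1.31 ± 0.19, a 2.47-fold fall (adjusted p = 0.00441). *Smad7* scored 4531, 3390, 4176 and 3966 at No Dox and 2599, 2461, 1263, 1559 and 2276 at 1wk WD, again without overlap. It fell by 1.03 ± 0.20 on the log2 scale (adjusted p = 0.0178). Leaving out No Dox sample 1 or 3, or 1wk WD sample 3 or 4, ended the call of *Smad7*, as did the fit without a trend, whereas *Smad6* stayed called in all 16 alternatives, with adjusted p from 0.00286 to 0.036. The 16 alternatives gave *Smad7* adjusted p from 0.0103 to 0.0708.

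*Id1* and *Eng* passed the p threshold with folds under 2. *Id1* scored 5208, 5463, 6554 and 5897 at No Dox and 3547, 3965, 2920, 2050 and 3260 at 1wk WD, a fall by 0.91 ± 0.17 (adjusted p = 0.0141). *Eng* went from between 31784 and 35151 to 26868, 26786, 15124, 12674 and 18324, a fall by 0.81 ± 0.20 (adjusted p = 0.0423). The 1wk WD samples 3 and 4 were the lowest of their group in *Eng*, *Smad6* and *Smad7*.

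*Acvrl1* and *Tgfb1* lay lower and *Tgfbr2* higher without overlap, but their adjusted p-values were just above the threshold. *Acvrl1* scored 7382, 6575, 5222, 4575 and 7368 at 1wk WD, below the No Dox range of 8416 to 9404 (-0.54 ± 0.14, adjusted p = 0.0534). *Tgfb1* scored 3342, 3050, 1858, 2267 and 2249 against 3579 to 3864 (-0.60 ± 0.16, adjusted p = 0.0535). *Tgfbr2* scored 22309, 23119, 24327, 24972 and 26369 against 16685 to 20360 (0.36 ± 0.09, adjusted p = 0.053). *Tgfb2*, *Tgfb3* and *Tgfbr1* overlapped between the time points, with log2 fold changes of -0.05, 0.31 and -0.11 and 95% intervals from -0.28 to 0.18, from -0.30 to 0.93 and from -0.30 to 0.08.

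In all, 2 of the 10 members were called in ECs at 1wk WD, both lower, where 1.76% of 14167 genes were called and 0.487% were called lower. The adjusted p was under 0.05 for 4 members against 3.9% of all genes. The groups did not overlap for 7 members against 10.7% of all genes. The median log2 fold change was -0.57 over the members and 0.0025 over all genes. The markers of other cells moved in the same samples. The summed score of the stromal list was between 5637 and 12607 at No Dox and between 16858 and 70818 at 1wk WD, with *Col1a1* and 3 further genes of the 10 called higher. The summed acinar score was between 54133 and 1459742 at No Dox and between 653 and 52046 at 1wk WD. The dendritic cell list fell from between 11391 and 13808 to between 8666 and 10404, without overlap. The endothelial list fell from between 535884 and 568394 to between 393853 and 463753 and did not overlap. Of its 8 genes, the VEGF receptors *Kdr* and *Flt1* passed the p threshold, at -0.98 and -0.71 (adjusted p = 0.00348 and 0.00666), and the other 6 lay between -0.35 for *Plvap* and 0.11 for *Cdh5*, none past it. The part of these shifts in the members' values was not tested.

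**Figure D3:**
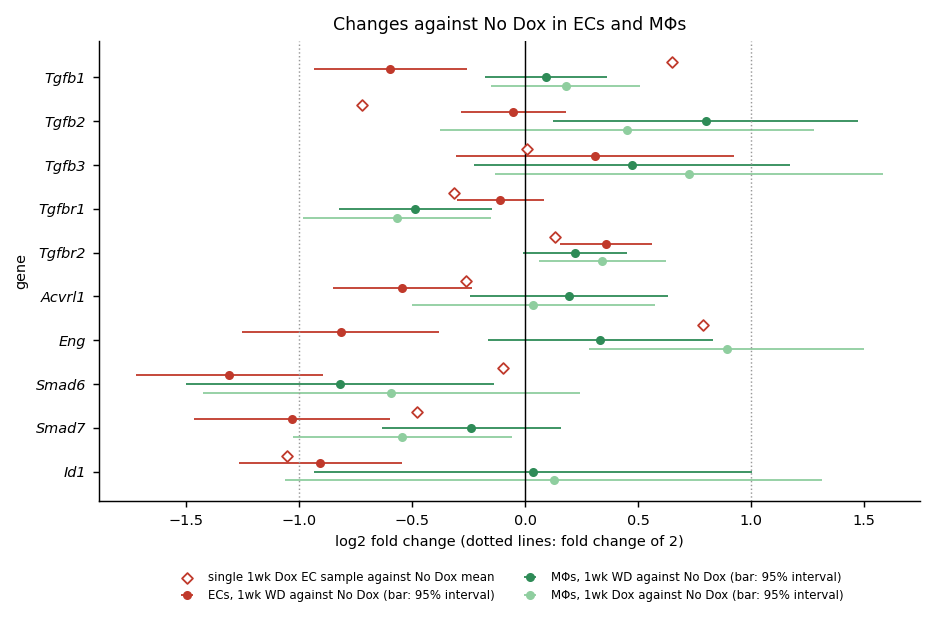
Points give the log2 fold change of each gene against No Dox with its 95% interval, in ECs at 1wk WD (red) and in MΦs at 1wk WD and 1wk Dox (dark and light green), and open diamonds give the single 1wk Dox EC sample. *Smad6* and *Smad7* at 1wk WD in ECs lie beyond a 2-fold fall, and *Eng* lies on opposite sides of 0 in the 1wk Dox and 1wk WD ECs.

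The single 1wk Dox EC sample lay outside the range of the 1wk WD samples for 8 of the 10 members, where 46.4% of all genes did. It was above that range for *Tgfb1*, *Acvrl1*, *Eng*, *Smad6* and *Smad7*, below it for *Tgfb2*, *Tgfbr1* and *Tgfbr2*, and inside it for *Tgfb3* and *Id1*. *Eng* scored 57958 there, above the highest No Dox score of 35151 and above the highest 1wk WD score of 26868. *Tgfb1* scored 5914, above 3864 and 3342. *Smad6* scored 11241, above its 1wk WD range of 3358 to 6177 and inside its No Dox range. The comparisons of both times with No Dox share the No Dox samples. The marker sums of this sample also lay outside the No Dox range, with the endothelial list at 636672 against 535884 to 568394, the stromal list at 14469 against 5637 to 12607, and the acinar list at 195 against 54133 to 1459742. Their part in its values was not tested. This sample is also in the higher run of column numbers. *Id1*, by contrast, scored 2779, within the 1wk WD range of 2050 to 3965 and below the lowest No Dox score of 5208.

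*Id1* was the only member at least 2-fold from the No Dox mean in this sample (-1.05), where 10.7% of all genes were that far away. *Tgfb2* scored 2461 against No Dox scores of 3776 to 4357 (-0.72), and *Smad7* scored 2872 against 3390 to 4531 (-0.48). *Smad6* and *Tgfb3* (133) were inside the No Dox range. The other 8 members were outside it, against 62.1% of all genes.

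The sequence just upstream of the first transcribed base (250 bases, build mm9) is shown for the member with the largest fall in ECs, for the co-receptor whose scores in the Dox and withdrawal ECs lay on opposite sides of the No Dox range, and for the target that was low at both times. In mm9 *Smad6* (ENSMUSG00000036867) lies at chr9:63800883-63869866, *Eng* (ENSMUSG00000026814) at chr2:32502115-32538189 and *Id1* (ENSMUSG00000042745) at chr2:152561987-152563146, all protein-coding genes. Capitals mark CAGAC or its complement GTCTG, the short box that Smad3 and Smad4 contact. The windows are chr9:63869867-63870116 on the minus strand for *Smad6*, chr2:32501865-32502114 on the plus strand for *Eng* and chr2:152561737-152561986 on the plus strand for *Id1*.
Smad6: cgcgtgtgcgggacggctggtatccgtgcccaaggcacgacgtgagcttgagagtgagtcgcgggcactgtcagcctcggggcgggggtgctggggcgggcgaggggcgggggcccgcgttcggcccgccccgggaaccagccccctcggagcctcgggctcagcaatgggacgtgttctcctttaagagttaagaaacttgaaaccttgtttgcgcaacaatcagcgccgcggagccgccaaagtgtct
Eng: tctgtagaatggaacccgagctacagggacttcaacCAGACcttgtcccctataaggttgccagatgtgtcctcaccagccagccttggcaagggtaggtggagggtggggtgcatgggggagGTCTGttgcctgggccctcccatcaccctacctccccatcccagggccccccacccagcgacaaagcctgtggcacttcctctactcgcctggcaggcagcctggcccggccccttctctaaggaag
Id1: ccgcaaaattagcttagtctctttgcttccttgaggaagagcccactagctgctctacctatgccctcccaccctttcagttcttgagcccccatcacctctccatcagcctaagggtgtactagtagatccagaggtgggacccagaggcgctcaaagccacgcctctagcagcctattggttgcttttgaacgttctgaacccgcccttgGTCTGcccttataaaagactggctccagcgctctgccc

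Across the 10 members, CAGAC on either strand was present in the windows of 4 (*Tgfb2*, *Acvrl1*, *Eng* and *Id1*), against 40.86% of 22380 promoters of the same length. GGCGCC, the GC-rich box read by the Smads of the BMP arm, was present in 3 (*Tgfbr1*, *Tgfbr2* and *Smad7*), against 11.13%. The palindrome GTCTAGAC was in none, against 0.143%. The 3 motifs were searched on both strands, and none of them contains another. The windows of *Smad6*, *Tgfb1* and *Tgfb3* held none of them, which says nothing of sites further away.

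Few genes of the wider pathway were called in ECs at 1wk WD, and not all in the same direction. Of 54 further genes of TGF-β and BMP signaling, 44 passed the filter, 2 were called higher and 1 lower, beside the 1.76% of all genes called in this comparison. Of the 44 genes, 21 lay above 0 and 23 below, with a median log2 fold change of -0.026. *Tgfbi*, a matrix protein named for its induction by TGF-β, scored 105, 130, 144 and 114 at No Dox, 525 in the 1wk Dox sample, and 641, 671, 511, 447 and 1125 at 1wk WD (2.39 ± 0.25, adjusted p = 0.00111). *Bmp4*, a ligand of the BMP arm, scored 166, 277, 292 and 219 at No Dox and 694, 898, 855, 619 and 641 at 1wk WD (1.65 ± 0.20, adjusted p = 0.00223). *Inhbb*, the activin B subunit, scored 642, 550, 596 and 617 at No Dox and 381, 342, 110, 163 and 147 at 1wk WD (-1.56 ± 0.33, adjusted p = 0.0228). The call of *Inhbb* ended without the trend and on leaving out any 1 No Dox sample (adjusted p up to 0.0766), while *Tgfbi* and *Bmp4* were called in all 16 alternatives. No sample of *Tgfbi*, *Bmp4* or *Inhbb* at 1wk WD was inside the No Dox range.

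Among the Smads that carry the signal, *Smad1* and *Smad9* passed the p threshold in opposite directions, at 0.81 ± 0.13 and -0.96 ± 0.22 (adjusted p = 0.00817 and 0.0299). *Smad1* scored 6609 to 7023 at No Dox and 8804 to 14062 at 1wk WD, and 12213 in the 1wk Dox sample. *Id3*, a relative of *Id1*, fell by 0.60 ± 0.14 (adjusted p = 0.0365). No latency gene, other receptor or other inhibitor was called. Because *Tgfbi* and *Bmp4* reached 1286 and 3270 in β cell samples rich in stromal transcripts, the stromal sums given above stand beside these rises, and their part was not tested.

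**Figure D4:**
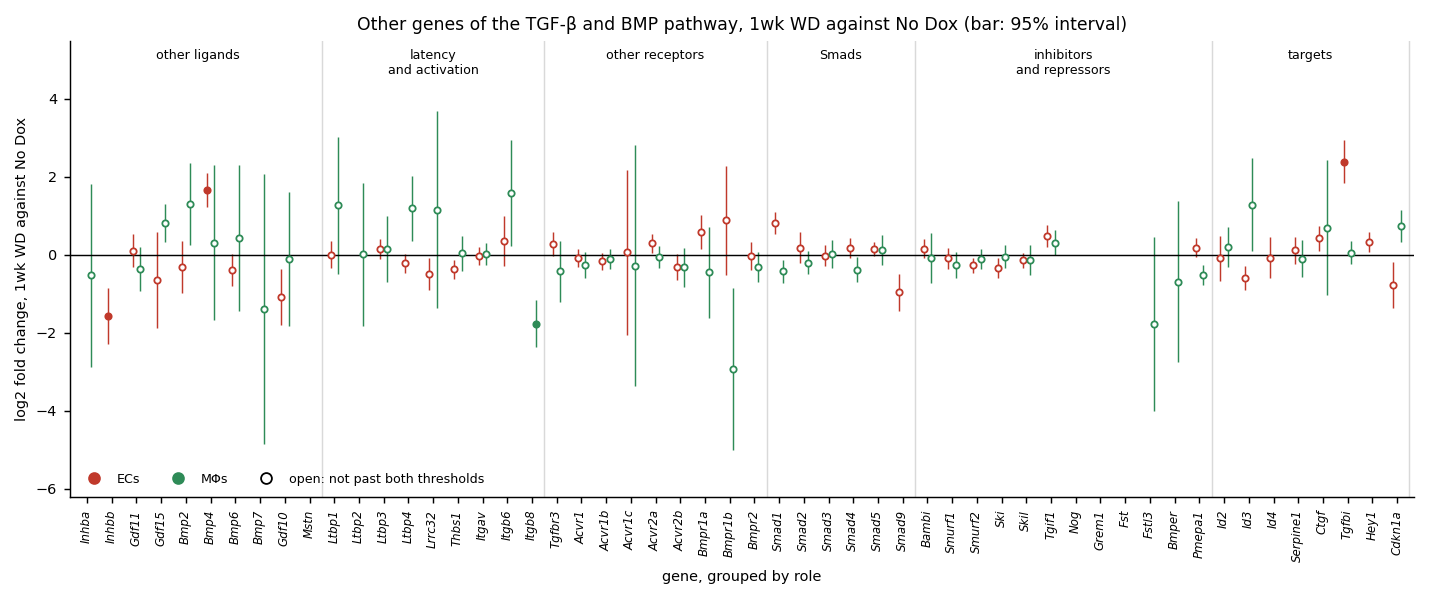
The plot gives the log2 fold change and 95% interval of the other TGF-β and BMP pathway genes at 1wk WD against No Dox, in ECs (red) and MΦs (green), grouped by role, with filled points where a gene was called. *Tgfbi* and *Bmp4* in ECs are the filled points above 0, *Inhbb* in ECs and *Itgb8* in MΦs those below, and genes without a point did not pass the filter.

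In MΦs the members differed between time points by less than the thresholds. None of the 10 was called by limma at 1wk Dox (2.26% of all genes called), at 1wk WD (0.626%) or between these times (0.0866%). The adjusted p was under 0.05 for none of them either, against 4.58%, 1.23% and 0.0999% of all genes. None reached a 2-fold change, whereas 6.55%, 4.97% and 1.82% of genes passed an unadjusted p under 0.05 with such a fold. *Tgfb1* scored 8244 and 6891 after Dox and 7421, 7123, 6966 and 6927 after withdrawal, inside its No Dox range of 5671 to 8121 apart from 1 sample (0.09 at 1wk WD, 95% interval from -0.18 to 0.36). *Eng* scored 1487 and 1298 at 1wk Dox, above its No Dox scores of 897, 994, 477 and 738, and 698, 1048, 1034 and 1044 at 1wk WD. The difference in *Eng* at 1wk Dox was 0.89 ± 0.28 (adjusted p = 0.09).

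The receptor *Tgfbr1* lay lower after induction in MΦs. It scored 28426 and 31861 after Dox and 38242, 31257, 28478 and 30217 after withdrawal, against 37296 to 57484 at No Dox (-0.57 ± 0.19 and -0.48 ± 0.16, adjusted p = 0.11 and 0.136). *Tgfbr2* scored 15080 and 14467 at 1wk Dox, above the No Dox range of 10485 to 12799 (0.34 ± 0.13, adjusted p = 0.15). *Smad7* scored 1280 and 1358, below the No Dox range of 1498 to 2439 (-0.54 ± 0.22, adjusted p = 0.187). The 1wk Dox and No Dox samples did not overlap for 6 members against 30.9% of all genes, and at 1wk WD for 2 members (*Tgfb2* and *Tgfbr2*) against 9.24%.

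The No Dox MΦ samples 2 and 4 carried the highest acinar sums of their group. With these samples left out, *Eng* was called higher at 1wk Dox (1.08, adjusted p = 0.0461), where 6.41% of all genes were called, and *Tgfbr1* passed the p threshold (-0.73, adjusted p = 0.0414). *Eng* was also called with sample 2 alone left out, and in none of the other alternatives of 18 (adjusted p up to 0.663). The endothelial list, which does not hold *Eng*, summed to 4165 and 3402 in the 1wk Dox MΦs against 1746 to 2427 at No Dox, without overlap, and its part in the *Eng* values was not tested. *Smad6* scored 614, 742, 408 and 477 at No Dox, 372 and 352 after Dox, and 567, 239, 334 and 202 at 1wk WD, with a 95% interval from -1.50 to -0.14 at 1wk WD and an adjusted p of 0.209. *Id1*, *Tgfb2* and *Tgfb3* scored 543 or less in every MΦ sample.

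Of the wider pathway, *Itgb8*, the integrin subunit that releases latent TGF-β, fell in MΦs. It scored 739, 471, 657 and 607 at No Dox, 151 and 238 after Dox, and 137, 193, 145 and 268 at 1wk WD, without overlap. The log2 fold changes of *Itgb8* were -1.68 ± 0.35 and -1.76 ± 0.28 (adjusted p = 0.0205 and 0.0158). *Gdf15*, a stress-induced member of the ligand superfamily, rose at 1wk Dox from 638, 427, 681 and 412 to 1362 and 913 (1.08 ± 0.27, adjusted p = 0.0432). These were the called genes among 46 tested, 1 of each direction at 1wk Dox and *Itgb8* at 1wk WD, beside 2.26% and 0.626% of all genes. *Gdf15* stayed called in 4 of 18 alternatives (adjusted p up to 0.629). *Itgb8* stayed called in 13 of 18 at 1wk Dox, where leaving out either 1wk Dox sample ended the call, and in 14 of 18 at 1wk WD, where leaving out 1wk WD sample 2 or 3 did (adjusted p up to 0.462 and 0.0678). The replicate block ended all of these calls. Marker sums moved in the same samples. At 1wk Dox the dendritic cell list was at 17980 and 20453 against 22637 to 28459 at No Dox, the lymphocyte list at 46 in both against 113 to 174, and the neutrophil and monocyte list at 16733 and 19826 against 19897 to 27334. The macrophage list was higher at both later times, between 329701 and 407416 against 224329 to 313958. The acinar list was at 944 and 2958 at 1wk Dox and between 1392 and 170707 at 1wk WD, against 19420 to 9849305 at No Dox. Their part in the MΦ values was not tested. Both 1wk Dox MΦ samples are also in the higher run of column numbers, which cannot be told apart from 1wk Dox here. *Pmepa1* (-0.66) and *Tgfbi* (0.75) passed the p threshold at 1wk Dox with folds under 2.

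The withdrawal response of ECs was set against that of MΦs directly. No member was called in this difference of differences, where 1.4% of all genes were. *Eng* was the only member with a difference over 2-fold, at -1.15 ± 0.33 (adjusted p = 0.0751), from -0.81 in ECs and 0.33 in MΦs. At an unadjusted p it passed with 9.04% of all genes. The responses of *Smad6* differed by -0.49, with a 95% interval from -1.31 to 0.33, and those of *Smad7* by -0.79, from -1.43 to -0.16 (adjusted p = 0.485 and 0.152). The falls of *Smad6* and *Smad7* in ECs were therefore not shown to differ from the values in MΦs. Against β cells, none of the members' responses was called by limma in ECs or in MΦs (0.0913% of all genes in ECs, and 0% in MΦs at both times). At an unadjusted p under 0.05 and a 2-fold difference, 5 members (*Tgfb1*, *Acvrl1*, *Eng*, *Smad6* and *Smad7*) passed in ECs against β cells, with 7.31% of all genes. In MΦs against β cells 0 passed at 1wk WD and *Smad7* passed at 1wk Dox, with 4.32% and 3.18% of all genes.

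In β cells, *Tgfbr2*, *Smad6* and *Eng* covered a wider fold range among the untreated samples than at either later time. *Tgfbr2* scored 166, 29, 1221 and 3130 at No Dox, 4246, 1431, 2515, 1881 and 636 after Dox, and 3697, 3918 and 1510 at 1wk WD. *Smad6* scored 20, 3, 864 and 1399, then 1270, 539, 675, 848 and 326, then 2647, 2057 and 389. *Eng* scored 220, 98, 1636 and 4487, then 8075, 2840, 4513, 3454 and 575, then 4155, 4454 and 1650. In each of *Tgfbr2*, *Smad6* and *Eng*, No Dox samples 1 and 2 lay below all later samples and No Dox samples 3 and 4 lay among them.

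The same split was seen in the stromal transcripts, and No Dox samples 3 and 4 also had the highest acinar sums of all β cell samples. *Pdgfrb*, the receptor that defines pericytes, scored 80, 66, 13692 and 49477 at No Dox and between 3980 and 48280 in the later samples. *Col1a1* scored 23, 4, 13278 and 33390 at No Dox and between 2958 and 61584 later. *Cdh5*, of endothelium, scored between 59 and 291 at No Dox, 4829, 1394, 2033, 88 and 19 after Dox, and 9, 130 and 1803 after withdrawal. The 8 endothelial markers summed to between 1636 and 7404 at No Dox, between 1503 and 55274 after Dox, and between 4319 and 16711 after withdrawal. The 7 macrophage markers summed to between 481 and 4108, between 1008 and 2144, and between 3835 and 5530 in the same order. The part of the transcripts of these other cells in the β cell values was not tested.

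**Figure D5:**
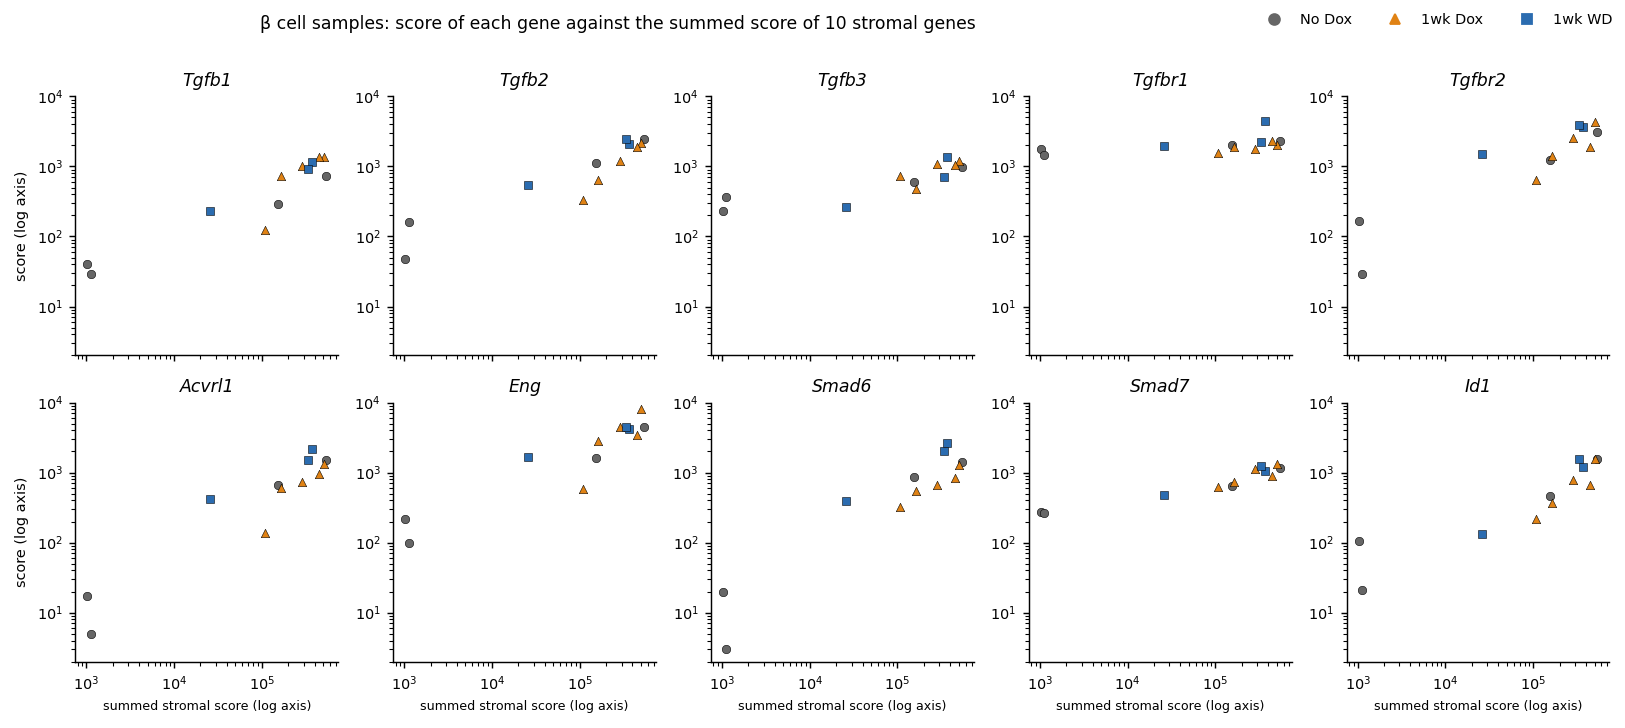
Each panel plots the score of 1 gene in the 12 β cell samples against the summed score of 10 stromal and pericyte genes, both on log axes, with gray, orange and blue points for No Dox, 1wk Dox and 1wk WD. No Dox samples 1 and 2, with stromal sums of 1031 and 1125, lie at the lower left for *Tgfbr2*, *Acvrl1*, *Eng* and *Smad6*, while *Tgfbr1* stays between 1460 and 4380 throughout.

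Against No Dox, limma called no member in β cells after 1 week of Dox (0.0122% of all genes called) or after withdrawal (0%), and none between the later times (0%). At an unadjusted p under 0.05 and a 2-fold difference, *Tgfb1* passed at the first of these times and *Tgfbr2* at the second, with 660 and 727 of 16346 genes (4.04% and 4.45%), and no member passed between the later times, with 471 genes (2.88%). The log2 fold changes of all 10 members against No Dox were above 0 at each later time, with medians of 1.86 and 2.08 where all genes had 0.03 and 0.06. The groups overlapped for every member, whereas 2.55% and 6.44% of all genes had no overlap, and both comparisons share the No Dox samples. *Smad6* (2.72 and 3.68) and *Acvrl1* (2.55 and 3.44) were the largest at both times, followed by *Tgfb1* (2.46) after Dox and *Tgfbr2* (2.91) after withdrawal, with 95% intervals for *Acvrl1* from -0.66 to 5.75 and from -0.21 to 7.08.

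Which No Dox samples were used decided these values. With samples 3 and 4 left out, 7 members were called at both later times (*Tgfb1*, *Tgfb2*, *Tgfbr2*, *Acvrl1*, *Eng*, *Smad6* and *Smad7*), against 7.36% and 8.74% of all genes. *Smad6* was then at 6.18 and 7.13 (adjusted p = 0.00154 and 0.00146). With samples 1 and 2 left out instead, none was called (0.487% and 0.0853% of all genes) and *Smad6* was at -0.73 and 0.22, *Eng* at 0.10 and 0.21, and *Tgfbr2* at -0.13 and 0.52. These alternatives were chosen after the marker values had been seen.

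*Tgfbr1*, *Smad7* and *Tgfb3* were well above the lowest score in No Dox β cell samples 1 and 2, where the stromal sums were lowest. *Tgfbr1* scored 1796 and 1460 there and between 1541 and 4380 in the later samples. *Tgfb3* scored 234 and 364, and *Smad7* 276 and 265. Of the other members, *Eng* scored 220 and 98 there, *Tgfbr2* 166 and 29, *Tgfb2* 47 and 161, and *Id1* 107 and 21. *Tgfb1* scored 41 and 29, *Smad6* 20 and 3, and *Acvrl1* 17 and 5. These scores are not divided by gene length, so they do not rank the genes. The acinar sums of these samples were those given above. The changes of *Tgfbr1* in β cells were the most narrowly bounded, at 0.02 with a 95% interval from -0.51 to 0.54 at 1wk Dox and 0.51 from -0.08 to 1.11 at 1wk WD.

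Over the 32 samples, *Id1* followed *Eng* (Pearson r = 0.947 on log2 scores) and *Tgfb2* (0.944), *Eng* followed *Smad6* (0.933), and *Acvrl1* followed *Tgfbr2* (0.932), whereas *Tgfbr1* ran against *Tgfb2* (-0.684). The samples share cell type, so these values largely describe levels in 3 cell types and carry no test. The most similar genes among 16968 were *Nid2* (0.979) for *Eng*, *Chst15* (0.973) for *Smad6*, *Fzd4* (0.977) for *Id1*, *Neurl1b* (0.978) for *Acvrl1*, *Myo1e* (0.942) for *Smad7* and *Sp100* (0.986) for *Tgfbr2*. For the ligands they were *Il2rg* (0.974) for *Tgfb1*, *Akap2* (0.98) for *Tgfb2* and *Leprel2* (0.932) for *Tgfb3*, and for *Tgfbr1* the most similar was *Ifitm6* (0.988).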

How the data were processed

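RNA of sorted β cells, ECs and MΦs was amplified, sequenced and aligned to mm9 with TopHat2 2.0 by the authors, who normalized expression by TMM with the Avadis NGS software. The values the authors deposited are scores, whole numbers from 1 upward, and the annotation version is not given in the sources used here. Samples pooled islets of several mice. Of the columns, 32 matched sample labels and 6, under the group headings of 1wk Dox ECs and MΦs, were not used. Depth is unknown. Genes averaging 20 or more in any fitted group were tested with limma 3.58.1 in R 4.3.3 on log2(score + 1), with a trend. β cell and MΦ fits took 3 time points, the EC fit No Dox and 1wk WD. The study's z-score test could not be repeated. All 10 members, called genes of the wider list (at most 5 per comparison), and marker genes where a result needed them are named. Members and lists were chosen with earlier results of these data known. Exon lengths and promoters came from GENCODE M1 and mm9, and *Smad6* has other coordinates in M1. Alternatives were the pseudocount, the filter, median-of-ratios scaling, no trend, the samples fitted, a replicate block and leaving out samples. The fit was tested on simulated data.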

Additional observations from a re-analysis of the deposited data

Results flagged for a closer look

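Single samples stood apart in 2 of the 60 gene and group combinations of 4 or 5 samples that were checked, against about 1 in 20 by chance. *Tgfb1* scored 125 in 1wk Dox β cell sample 5, against 738 to 1375 in the other 4. *Eng* scored 698 in 1wk WD MΦ sample 1, against 1034 to 1048 in the others.

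The response to withdrawal differed between ECs and MΦs for 3 of the 50 genes of the wider pathway tested, beside 1.4% of all genes (limma interaction, adjusted p). The change in *Tgfbi* was 2.39 in ECs and 0.05 in MΦs on the log2 scale, a difference of 2.33 (adjusted p = 0.001). The change in *Smad1* was 0.81 in ECs and -0.42 in MΦs, a difference of 1.23 (adjusted p = 0.00349). *Cdkn1a*, a cell cycle inhibitor, differed by -1.51 (adjusted p = 0.0495), from 11516 to 15933 down to 3786 to 11680 in ECs and from 5889 to 7613 up to 8636 to 17019 in MΦs. The call of *Cdkn1a* held in 9 of 24 alternatives, with adjusted p up to 0.104, and those of *Tgfbi* and *Smad1* in all 24.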

How the results depend on the processing

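Of the counts of members called, 337 were within 1.5 times the reported count and 22 were not. In ECs at 1wk WD the count went from 2 to 1 without the trend (0.536% of all genes called), and was 1 to 2 on leaving out samples (0.529% to 1.38% where it was 1). In MΦs at 1wk Dox it was 0 to 1 on leaving out samples (3.28% where it was 1), and 1 without No Dox samples 2 and 4 (6.41%). In β cells, leaving out No Dox samples 3 and 4 gave 7 in each later group (7.36% and 8.74%). For MΦs against β cells at No Dox it was 9 without β cell samples 1 and 2 (43%), which also reversed *Eng* to -1.85 and *Smad6* to -1.01. For ECs against MΦs at No Dox it was 8 with only these groups fitted, without β cell samples 3 and 4, and without samples 1 and 2 (39.6%, 37.7% and 37.3%). For the withdrawal response, ECs minus MΦs gave 0 to 1 on leaving out samples (1.55% to 2.2% where it was 1) and 2 without MΦ samples 2 and 4 (5.58%). ECs minus β cells gave 0 to 2 (1.47% where it was 2) and 8 without β cell samples 3 and 4 (16.5%), and MΦs minus β cells 7 at 1wk WD and 5 at 1wk Dox without these samples (9.32% and 6.24%). The single 1wk Dox EC sample gave 0 to 1 members at 2-fold. Apart from the samples left out, the cause was not tested. In none of 13 group pairs did every same-numbered pair correlate above 0.1 (range -0.466 to 0.371). The numbers were therefore not taken as pairs. Single pairs reached 0.371, between No Dox ECs and MΦs. At 1wk WD, sample 1 had the highest acinar sum of its group for each cell type (β cells 479306, ECs 52046, MΦs 170707). At No Dox this was sample 2 for ECs (1459742) and MΦs (9849305), but sample 3 for β cells (10426221). At 1wk Dox, sample 5 was lowest of the β cells (188) and highest of the MΦs (2958). Whether same-numbered samples shared pooled islets was not tested. The replicate block left *Smad6* and *Smad7* called in ECs at 1wk WD (2) and gave 0 in the β cell and MΦ time comparisons. Scores carry no depth, so low scores have no counting interval.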
